A study of Mus musculus with 9 samples.

Results

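Transcript levels of 9 genes that control the release of RNA polymerase II into productive elongation were examined in mouse embryonic fibroblasts (MEFs) under hyperosmotic stress. These were Hexim1, Hexim2, Cdk9, Ccnt1, Ccnt2, Larp7, Mepce, Aff4 and Ell2, chosen by gene symbol as 9 of the 35275 genes in the deposited table. The large response of Hexim1 in these libraries was already known when the genes were chosen, so its values are given as a description without a test. The other 8 genes were tested, but they and all further lists were also chosen with earlier results of these data known. Their p-values do not account for that choice. MEFs labelled as strain C57Bl/6 were left untreated (control), or were treated for 3 h with medium to which 200 mM sucrose had been added, giving 500 mOsm in total (low intensity stress), or 300 mM sucrose, giving 600 mOsm in total (high intensity stress). Each group had 3 libraries of poly(A)-selected RNA, and the cells were grown in serum-containing medium on culture dishes. The labels do not say whether the 3 libraries of a group came from separate cultures, so the p-values measure only the spread between these libraries. All 9 genes passed the filter on low counts that left 13082 genes for testing.

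Libraries held between 21716042 and 26740832 counts assigned to genes. Of 8 fibroblast markers, 5 (Col1a1, Col1a2, Vim, Pdgfrb and Thy1) had group means of 22.0 FPKM or more, with Col1a1, a fibrillar collagen chain, between 1498 ± 69.4 and 1879 ± 116 fragments per kilobase, scaled to library size (FPKM), and Vim, an intermediate filament protein, between 1704 ± 43.3 and 1794 ± 18.8 FPKM over the 3 group means (SD, n = 3). The other 3 were lower, with Postn at 0.374 to 0.411 FPKM. Col3a1 fell from 8.57 ± 0.632 FPKM in control to 3.55 ± 0.389 at 500 mOsm and 5.39 ± 0.262 at 600 mOsm, and Pdgfra from 5.77 ± 0.109 to 3.55 ± 0.200 and 3.56 ± 0.469 FPKM, while Col1a1, Col1a2 and Pdgfrb were higher at 600 mOsm than in control. Of 16 leukocyte, epithelial and endothelial markers, 7 were tested. Of these, 6 (Itgam, Csf1r, Cd79a, Cdh1, Pecam1 and Tek) were higher at 500 mOsm than in control, beside 13.2% of all genes. At 600 mOsm 1 (Pecam1) was higher, beside 15.2% of all genes. Itgam, Cdh1 and Tek had at most 2 counts in a control library. More genes had at least 1 count at 500 mOsm (18920 to 19222 a library) than in control (16452 to 16871) or at 600 mOsm (17846 to 18031). The summed level of the 6 leukocyte markers ranged from 2.39 to 2.61 FPKM in control, 5.89 to 6.51 FPKM at 500 mOsm and 2.26 to 2.57 FPKM at 600 mOsm, that of the 5 epithelial markers from 0.0271 to 0.0810, 0.807 to 0.863 and 0.0561 to 0.0878 FPKM, and that of the 5 endothelial markers from 0.252 to 0.282, 3.40 to 3.90 and 0.590 to 0.929 FPKM. Krt5, a keratin of basal epithelium, was at 0 in all 9 libraries, and Ptprc, which encodes the pan-leukocyte protein CD45, stayed at or below a group mean of 0.0401 FPKM. These markers moved with 500 mOsm, the condition in which several genes described below were low, and their part in those results was not tested. In bulk libraries such as these, fewer cells of a type and less RNA per cell cannot be told apart.

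The kinase Cdk9 pairs with cyclin T1 (Ccnt1) or cyclin T2 (Ccnt2) to form P-TEFb, which phosphorylates paused RNA polymerase II and the factors that hold it near the promoter. A large share of P-TEFb in the cell is kept inactive in a particle built on the small nuclear RNA 7SK, where a Hexim1 or Hexim2 dimer binds and inhibits the kinase, Larp7 binds the end of 7SK, and Mepce caps it. P-TEFb set free from this particle works with bromodomain proteins or in super elongation complexes, which assemble on the scaffold Aff4 and hold an elongation factor of the Ell family such as Ell2. Hexim1 was first described as a transcript induced by hexamethylene bisacetamide, and its induction when P-TEFb is released is known as a feedback of this pathway.

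On the mm10 mouse genome, Hexim1 lies at chr11:103116231-103119725 on the plus strand (GENCODE vM21) and has 1 exon of 3495 bases. Hexim2 follows on the same strand at chr11:103132429-103139876, with a gap of 12703 bases and 0 annotated genes between them, and has 2 to 4 exons in its 5 transcripts. The others lie apart, Cdk9 at chr2:32705784-32713076, Ccnt1 at chr15:98538689-98570923, Ccnt2 at chr1:127774164-127808061, Larp7 at chr3:127536714-127553349, Mepce at chr5:137781906-137787655, Aff4 at chr11:53350833-53421830 and Ell2 at chr13:75706757-75772364, and all 9 are protein-coding. Promoter windows from RefSeq (GRCm38.p6, the same assembly as mm10), from 250 bases before to 50 bases after the annotated start, were found for 7 of the 9 genes, and not for Hexim2 and Mepce. The windows of 4 genes are shown 5′ to 3′: Hexim1 as the gene with the largest rise against control, Ccnt2 as the cyclin with the larger fall, and Ell2 and Larp7 as those with a full cyclic AMP response element. Capitals mark TATATAA in Hexim1, the GC box GGGCGG on the printed strand in Ccnt2, and TGACGTCA in Ell2 and Larp7.
Hexim1 promoter, chr11:103116075-103116374, plus strand: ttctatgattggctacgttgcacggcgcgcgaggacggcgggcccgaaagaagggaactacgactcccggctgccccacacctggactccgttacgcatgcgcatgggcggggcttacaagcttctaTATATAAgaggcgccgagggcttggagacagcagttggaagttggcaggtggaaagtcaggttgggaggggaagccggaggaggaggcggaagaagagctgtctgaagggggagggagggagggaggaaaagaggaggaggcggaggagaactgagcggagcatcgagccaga
Ccnt2 promoter, chr1:127773914-127774213, plus strand: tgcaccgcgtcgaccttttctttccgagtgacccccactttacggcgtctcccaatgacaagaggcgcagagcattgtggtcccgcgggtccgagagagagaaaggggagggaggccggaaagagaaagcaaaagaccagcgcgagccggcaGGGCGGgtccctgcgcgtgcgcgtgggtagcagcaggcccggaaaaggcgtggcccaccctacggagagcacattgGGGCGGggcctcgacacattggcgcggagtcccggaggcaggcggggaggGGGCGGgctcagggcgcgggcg
Ell2 promoter, chr13:75707234-75707533, plus strand: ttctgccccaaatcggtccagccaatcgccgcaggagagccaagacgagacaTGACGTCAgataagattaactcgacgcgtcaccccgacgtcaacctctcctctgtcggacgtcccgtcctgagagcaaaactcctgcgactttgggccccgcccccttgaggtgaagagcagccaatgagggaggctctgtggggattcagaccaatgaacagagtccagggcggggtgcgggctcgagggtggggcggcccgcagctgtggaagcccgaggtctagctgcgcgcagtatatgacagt
Larp7 promoter, chr3:127553300-127553599, minus strand: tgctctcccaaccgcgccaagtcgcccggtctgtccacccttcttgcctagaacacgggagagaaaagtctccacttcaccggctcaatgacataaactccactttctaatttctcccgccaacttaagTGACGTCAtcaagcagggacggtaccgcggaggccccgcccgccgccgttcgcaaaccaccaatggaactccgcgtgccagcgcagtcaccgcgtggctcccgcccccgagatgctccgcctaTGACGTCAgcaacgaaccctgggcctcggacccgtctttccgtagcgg

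Motifs were searched on both strands of all 27025 RefSeq promoter windows. The run TATATAA, picked after the Hexim1 sequence had been seen, was in 3.46% of windows and in Hexim1 alone among the 7 matched genes. Its first base lay 29 bases before the GENCODE start of Hexim1 and 123 bases before the RefSeq start, since the annotations place the start 94 bases apart. TATAAA was in 14.2% of all windows and in none of the 7, and over all windows a site of one of these motifs can overlap a site of the other. TGACGTCA was in 1.88% of all windows, at 198 bases before the RefSeq start in Ell2, and at 121 bases before and 2 bases after the start in Larp7. GENCODE starts Larp7 and Ccnt2 at the same base as RefSeq, but places the start of Ell2 727 bases upstream, so that its site lies inside the GENCODE gene, that of Ccnt1 3187 bases and that of Cdk9 292 bases upstream, and that of Aff4 66 bases downstream. GGGCGG, held by 35.9% of windows, was found in 6 of the 7 (all but Aff4), with 3 matches each in Ccnt2 and Ell2. CCAAT was in 37.9% of windows and in 5 of the 7. The consensus of the tonicity-responsive enhancer (4.98% of windows) and that of the kappa-B site (8.18%) had no match in the 7 windows. TGACGTCA reads the same on both strands and was counted once a site. All 7 windows were rich in G and C (61.0% to 79.0%, against a median of 52.7% over all windows). They held 21 to 44 CpG dinucleotides, against a median of 7 over all windows.

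Hexim1 increased with each step in stress intensity. On the scale of counts scaled by library size with TMM factors (CPM), its level in the 3 control libraries was 49.8, 51.7 and 51.3 CPM. At 500 mOsm it was 108, 102 and 104 CPM. At 600 mOsm it was 498, 469.0 and 469.6 CPM, so that no library of one group reached the range of another. The log2 fold change was 1.04 (SE 0.049) at 500 mOsm and 3.23 (SE 0.051) at 600 mOsm against control, which are 2.06-fold and 9.40-fold, and 2.19 (SE 0.049), or 4.56-fold, between both stress intensities. Among the 13082 genes tested, Hexim1 stood at position 769 by fold change at 500 mOsm, position 118 at 600 mOsm and position 28 between 600 and 500 mOsm. Its mean FPKM rank moved from 4217 in control to 2510 and then 580. The gene shares no stretch of 100 or more bases at 95% identity or above with another annotated gene.

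Hexim2, the paralog, rose at 600 mOsm only. Its control libraries held 2.96, 2.91 and 2.54 CPM. At 500 mOsm they held 1.72, 2.07 and 2.25 CPM, all below the lowest control library. At 600 mOsm they held 10.0, 9.81 and 10.6 CPM, all above every other library. These levels rest on 42 to 71 counts in a control or 500 mOsm library and on 219 to 273 counts at 600 mOsm. The log2 fold change was 1.85 (SE 0.13, adjusted p = 6.79e-08, edgeR's quasi-likelihood test with Benjamini-Hochberg adjustment over all genes) at 600 mOsm against control, a 3.61-fold rise. Between 600 and 500 mOsm it was 2.32 (SE 0.13, adjusted p = 8.99e-09 by edgeR), a 5.00-fold difference, which placed Hexim2 at position 26 of 13082 by fold change, beside Hexim1 at 28. At 500 mOsm Hexim2 was lower than control by this test, with a log2 fold change of -0.47 (SE 0.15, edgeR adjusted p = 0.0312). That call held in 12 of 19 alternatives, whose adjusted p ranged from 0.0160 to 0.114. It was lost with DESeq2 (adjusted p = 0.0785), in a fit of these 2 groups alone (0.0713), and in edgeR without control replicate 1 (0.0937), control replicate 2 (0.0841), 500 mOsm replicate 1 (0.114) or 500 mOsm replicate 2 (0.0577), as well as in 1 further fit.

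The P-TEFb genes went down. Cdk9, the kinase subunit, was at 72.5, 74.2 and 73.1 CPM in control, 62.8, 61.8 and 60.9 CPM at 500 mOsm and 54.9, 56.9 and 48.3 CPM at 600 mOsm. The 3 groups did not overlap, and the steps were small. Its log2 fold change was -0.24 (SE 0.062, edgeR adjusted p = 0.00745) at 500 mOsm and -0.46 (SE 0.062, edgeR adjusted p = 5.40e-05) at 600 mOsm against control. Between 600 and 500 mOsm it was -0.21 (SE 0.062, edgeR adjusted p = 0.0184), and over 19 alternatives that adjusted p ranged from 0.00889 to 0.0954. This last call was lost without 500 mOsm replicate 1 (edgeR adjusted p = 0.0583) and without 600 mOsm replicate 3 (-0.14, edgeR adjusted p = 0.0954).

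Ccnt1, the cyclin found in most P-TEFb, was at 32.9, 27.2 and 31.0 CPM in control and at 23.6, 21.1 and 23.4 CPM at 500 mOsm, with no overlap. At 600 mOsm it was at 21.8, 27.6 and 21.2 CPM, and replicate 2 lay within the control range. The log2 fold change was -0.42 (SE 0.10, edgeR adjusted p = 0.00646) at 500 mOsm and -0.37 (SE 0.10, edgeR adjusted p = 0.0126) at 600 mOsm. The call at 600 mOsm held in 15 of 19 alternatives, with adjusted p from 2.99e-04 to 0.196. It was lost in edgeR without control replicate 1 (0.0568), without 600 mOsm replicate 1 (0.0632) or replicate 3 (0.0592), and with a correction of each library for gene length (-0.15, adjusted p = 0.196). No difference was detected between 600 and 500 mOsm (0.05, 95% interval -0.17 to 0.27). Ccnt1 shares 695 exon bases with the antisense gene 9330020H09Rik, which had at most 49 counts in a library, and the sources used here do not say whether counting used strand.

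Ccnt2 fell further. It was at 18.1, 15.3 and 18.8 CPM in control, against 10.9, 7.88 and 8.58 CPM at 500 mOsm and 10.8, 12.5 and 9.20 CPM at 600 mOsm. Every stressed library was below every control library, and both stress groups overlapped. The log2 fold change was -0.93 (SE 0.14, edgeR adjusted p = 1.18e-04) at 500 mOsm, a level 1.91-fold lower, and -0.69 (SE 0.14, edgeR adjusted p = 0.00141), or 1.61-fold lower, at 600 mOsm. Between 600 and 500 mOsm the log2 difference was 0.25 (95% interval -0.06 to 0.55, edgeR adjusted p = 0.215). With the length correction this difference was 0.45 (edgeR adjusted p = 0.00617), and the adjusted p ranged from 0.00617 to 0.525 over 19 alternatives.

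The transcripts of Larp7 and Mepce, whose proteins build the 7SK particle with Hexim, showed no detected change. Larp7 was at 53.3, 50.4 and 60.6 CPM in control, 59.1, 51.3 and 55.0 CPM at 500 mOsm, and 57.4, 67.5 and 57.7 CPM at 600 mOsm. Its log2 fold change against control was 0.01 (95% interval -0.17 to 0.19) at 500 mOsm and 0.15 (95% interval -0.03 to 0.33) at 600 mOsm, with edgeR adjusted p of 0.955 and 0.179. Mepce was at 114, 137 and 119 CPM in control, 128, 144 and 113 CPM at 500 mOsm, and 120.1, 111 and 130.2 CPM at 600 mOsm. Its log2 fold change was 0.05 (95% interval -0.16 to 0.26) at 500 mOsm and -0.03 (95% interval -0.24 to 0.18) at 600 mOsm, with edgeR adjusted p of 0.731 and 0.819. Between 600 and 500 mOsm the log2 differences were 0.14 (95% interval -0.04 to 0.32) for Larp7 and -0.09 (95% interval -0.30 to 0.12) for Mepce. For both genes the groups overlapped in all 3 comparisons. The pseudogene Gm12666 shares a run of 764 identical bases with Larp7 and had at most 2 counts in a library.

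The super elongation genes differed in when they were low. Aff4, the scaffold, was at 85.0, 71.3 and 81.7 CPM in control and 87.1, 67.4 and 71.8 CPM at 500 mOsm, which overlapped. At 600 mOsm it was at 51.6, 59.0 and 49.5 CPM, below all other libraries. Its log2 fold change was -0.07 (95% interval -0.30 to 0.15, edgeR adjusted p = 0.659) at 500 mOsm, -0.57 (SE 0.10, edgeR adjusted p = 0.00129) at 600 mOsm, and -0.50 (SE 0.10, edgeR adjusted p = 0.00353) between 600 and 500 mOsm. With the length correction the falls to 600 mOsm were smaller, -0.28 against control (edgeR adjusted p = 0.00326) and -0.23 against 500 mOsm (edgeR adjusted p = 0.0166), and both passed in all 19 alternatives, with adjusted p up to 0.00817 and 0.0198. Aff4 has the longest counted length of the 9 genes, 10099 bases.

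Ell2, the elongation factor, was at 9.38, 8.52 and 11.1 CPM in control, 6.07, 5.16 and 4.81 CPM at 500 mOsm, and 4.52, 6.13 and 4.37 CPM at 600 mOsm. Every stressed library was below every control library. The log2 fold change was -0.86 (SE 0.15, edgeR adjusted p = 4.68e-04) at 500 mOsm and -0.95 (SE 0.15, edgeR adjusted p = 2.26e-04) at 600 mOsm, levels 1.81-fold and 1.94-fold lower. No difference was detected between the stress intensities (-0.10, 95% interval -0.44 to 0.24, edgeR adjusted p = 0.695).

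**Figure D1:**
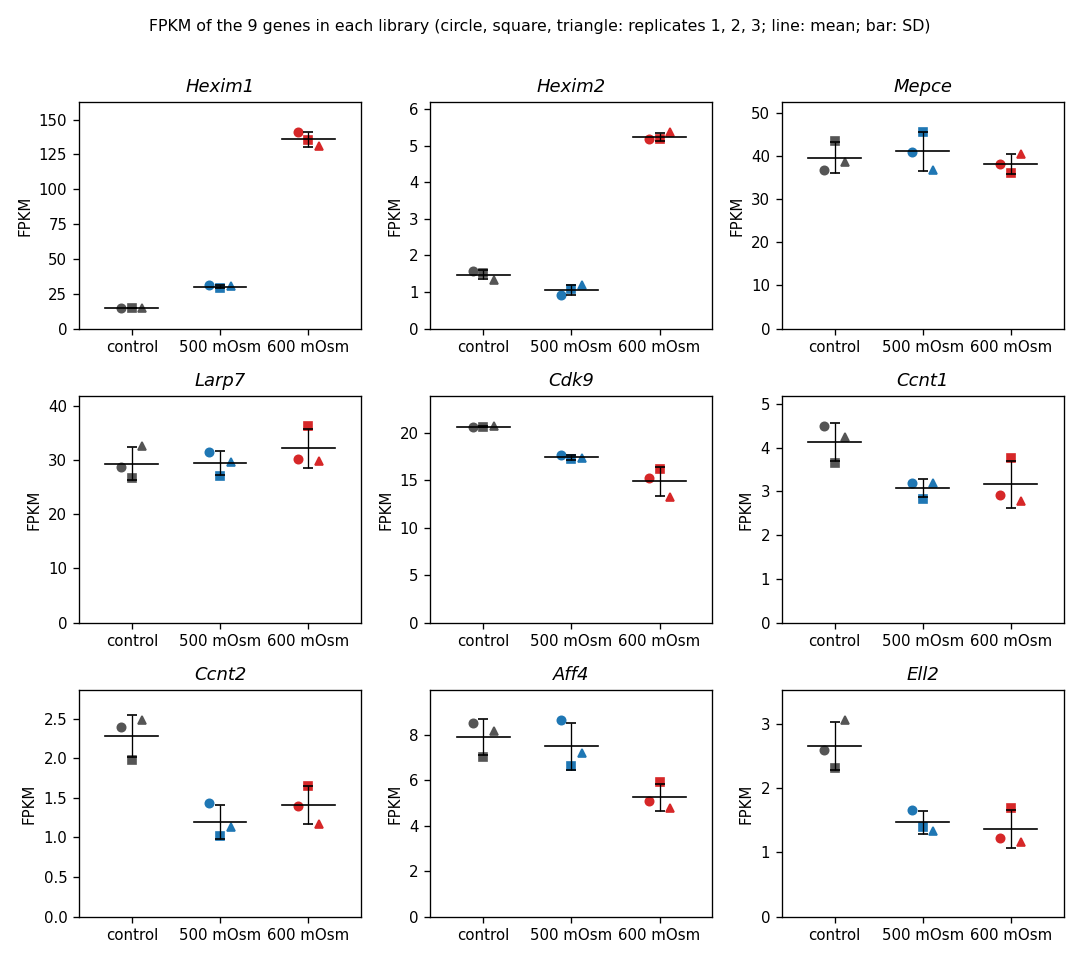
FPKM (y axis, linear from 0) of each of the 9 genes in each library, by group (x axis). Circles, squares and triangles are replicates 1, 2 and 3, the line is the group mean and the bar the SD (n = 3). Hexim1 sits at 14.4 to 14.8, 29.1 to 31.1 and 131 to 141 FPKM. Hexim2 lies below the libraries of both other groups at 500 mOsm and above them at 600 mOsm.

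Counted together without Hexim1, 0 of 8 genes were higher and 5 of 8 were lower at 500 mOsm than in control (Hexim2, Cdk9, Ccnt1, Ccnt2 and Ell2). For the 0 higher genes by edgeR, the count at an unadjusted p under 0.05 was also 0, as it was with DESeq2 and limma. Over all 13082 genes, 13.2% were higher and 14.9% lower in that comparison. At 600 mOsm, 1 of 8 was higher (Hexim2) and 5 of 8 were lower (Cdk9, Ccnt1, Ccnt2, Aff4 and Ell2), against 15.2% and 19.9% of all genes. Both comparisons use the same control libraries. Between 600 and 500 mOsm, 1 of 8 was higher (Hexim2) and 2 of 8 were lower (Cdk9 and Aff4), against 12.1% and 17.2% of all genes. The median log2 fold change of the 8 genes was -0.33, -0.41 and -0.02 in these 3 comparisons, and that of all genes was 0.01 in each. The shares of lower genes against control were above those of all genes, and 8 genes chosen with results known give only a description.

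**Figure D2:**
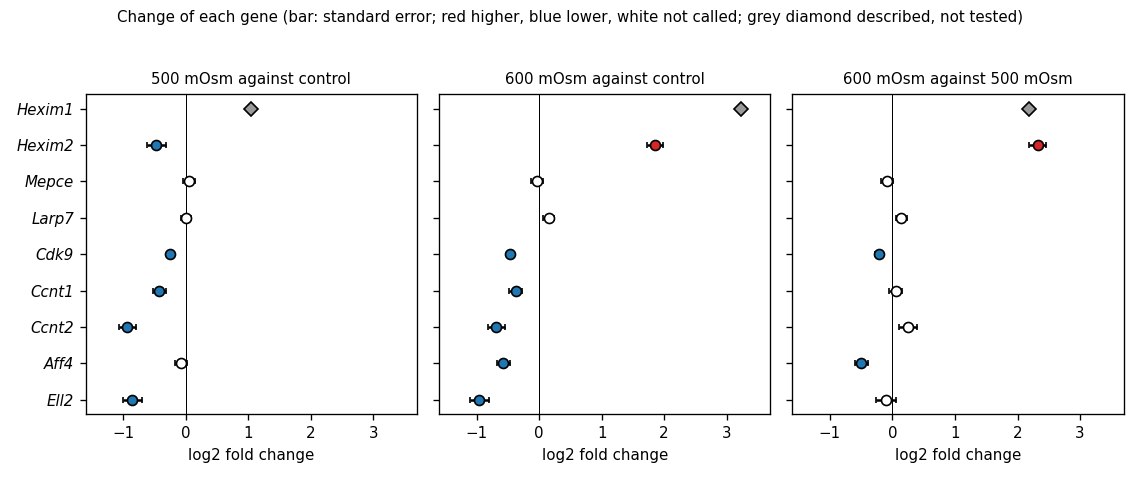
Log2 fold change (x axis) of each gene (y axis) in the 3 comparisons, with the standard error as a bar. Red points were higher and blue points lower at an adjusted p under 0.05, white points were not called, and the grey diamond is Hexim1, which was not tested. Hexim2 lies at -0.47, 1.85 and 2.32 from left to right, and Ccnt2 and Ell2 lie lowest at 500 mOsm.

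Compared per length, the order of the genes also changed. In control the highest was Mepce at 39.6 ± 3.50 FPKM (SD, n = 3), followed by Larp7 at 29.3 ± 3.04, Cdk9 at 20.6 ± 0.067 and Hexim1 at 14.6 ± 0.214 FPKM. Below them came Aff4 at 7.90 ± 0.788, Ccnt1 at 4.13 ± 0.433, Ell2 at 2.66 ± 0.379, Ccnt2 at 2.29 ± 0.267 and Hexim2 at 1.47 ± 0.118 FPKM. Only the neighbours Ell2 and Ccnt2 overlapped between libraries.

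At 500 mOsm, Hexim1 (30.1 ± 1.02 FPKM) overlapped with Larp7 (29.4 ± 2.24 FPKM) below Mepce (41.0 ± 4.47 FPKM). Cdk9 was at 17.4 ± 0.250, Aff4 at 7.49 ± 1.05 and Ccnt1 at 3.08 ± 0.212 FPKM. The lowest 3, Ell2 at 1.47 ± 0.177, Ccnt2 at 1.20 ± 0.211 and Hexim2 at 1.06 ± 0.145 FPKM, were not separated from their neighbours.

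At 600 mOsm, Hexim1 was the highest of the 9 at 136 ± 5.24 FPKM, above Mepce (38.2 ± 2.30 FPKM) and Larp7 (32.1 ± 3.60 FPKM), which overlapped. Cdk9 was at 14.9 ± 1.50 FPKM. Hexim2 (5.25 ± 0.112 FPKM) had moved up to the level of Aff4 (5.24 ± 0.585 FPKM), with overlapping libraries, and lay above Ccnt1 (3.16 ± 0.533 FPKM), Ccnt2 (1.41 ± 0.240 FPKM) and Ell2 (1.36 ± 0.291 FPKM). The last pair overlapped.

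Ratios of FPKM within a library describe the balance of inhibitor and kinase transcripts, and say nothing of the proteins. Hexim1 to Cdk9 was 0.710 ± 0.00816 in control, 1.73 ± 0.0363 at 500 mOsm and 9.19 ± 0.753 at 600 mOsm (SD, n = 3). Hexim1 plus Hexim2 to Ccnt1 plus Ccnt2 was 2.53 ± 0.299, 7.33 ± 0.460 and 31.4 ± 4.73 in the same order. In both ratios the 3 groups were apart. Hexim1, whose rise was already known, is all or most of both numerators, so this separation largely restates that rise and is only a description. Hexim1 to Hexim2 went from 9.99 ± 0.961 to 28.9 ± 4.83 at 500 mOsm and was 25.9 ± 1.48 at 600 mOsm, where the stress groups overlapped. Ccnt1 to Ccnt2 was 1.81 ± 0.0925 in control, 2.60 ± 0.323 at 500 mOsm and 2.25 ± 0.147 at 600 mOsm, both above every control library.

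**Figure D3:**
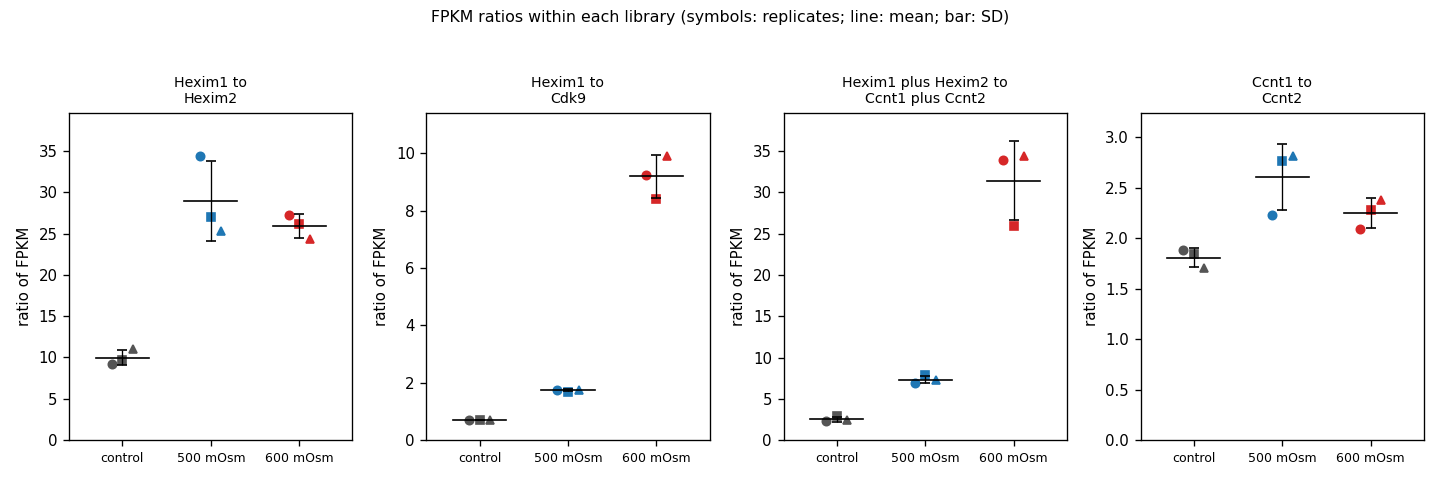
Ratio of FPKM values within each library (y axis, linear from 0) by group (x axis). Symbols are replicates 1, 2 and 3, the line is the mean and the bar the SD (n = 3). Hexim1 to Cdk9 is below 1 in all control libraries and at 8.41 to 9.91 at 600 mOsm.

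The genes within 100000 bases of Hexim1 were described as well. Acbd4, an acyl-CoA binding domain gene that ends 4030 bases before Hexim1 on the same strand, was higher at 500 mOsm (log2 fold change 0.44, SE 0.12, edgeR adjusted p = 0.0102) and at 600 mOsm (0.56, SE 0.12, edgeR adjusted p = 0.00185) than in control. Plcd3, Nmt1 and Dcakd, farther upstream, did not pass the test in any comparison, with log2 fold changes from -0.01 to 0.19. Fmnl1, which begins 51381 bases after Hexim1, was at 0.91 at 600 mOsm (edgeR adjusted p = 0.0433) on 7 to 30 counts a library. Between 600 and 500 mOsm, where Hexim1 and Hexim2 both rose, neither Acbd4 (0.12, edgeR adjusted p = 0.478) nor Fmnl1 (0.29, edgeR adjusted p = 0.512) was called. The non-coding Gm26668, with 0 to 21 counts, was lower in both stress groups (-2.31 and -2.62, edgeR adjusted p = 0.00303 and 0.00181).

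**Figure D4:**
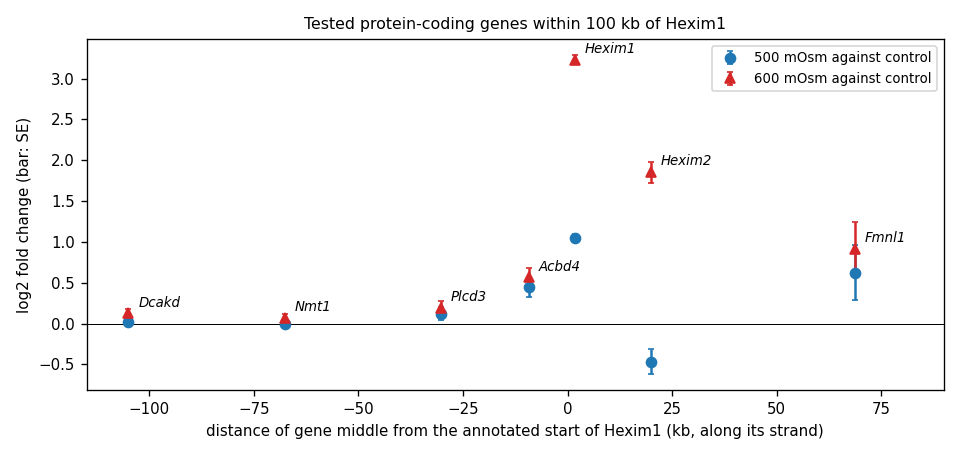
Log2 fold change with its standard error (y axis) of the tested protein-coding genes within 100000 bases of Hexim1, against the distance of each gene's middle from the Hexim1 start in kb (x axis). Blue circles are 500 mOsm and red triangles 600 mOsm against control. Hexim1 (3.23) and Hexim2 (1.85) stand above their neighbours at 600 mOsm, where Acbd4 is at 0.56.

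Gene structure differed among the 9 genes, and fold changes over all genes moved slightly with it. Hexim1 is one of 851 tested genes with 1 exon in every transcript, whose median log2 fold change at 600 mOsm was 0.10, against 0.00 for 12171 genes with more exons. Aff4 and Ell2 span 70998 and 65608 bases and belong to the longest 3256 tested genes by genomic span (over 50585 bases), whose median was 0.04 at 500 mOsm and -0.09 at 600 mOsm. Cdk9 (7293 bases), Mepce (5750 bases), Hexim1 and Hexim2 belong to the shortest 3256 (under 8149 bases), with medians of 0.02 and 0.09. The part of gene structure in the members' changes was not tested.

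The 5 genes whose log2 CPM followed Hexim1 most closely over the 9 libraries, out of 1577 tested genes whose group means ranged over at least 1 on the log2 scale, were Hist1h1d (Pearson r = 0.987), Hist1h2ak (0.983), Igf2 (0.980), Hist1h1e (0.980) and Gadd45g (0.971). Libraries of a group share a treatment, so r describes the common pattern over 3 groups. Hist1h1e, a linker histone, was at 1.02 ± 0.327 CPM in control, 2.72 ± 0.240 CPM at 500 mOsm and 10.9 ± 1.20 CPM at 600 mOsm (SD, n = 3). Hist1h1d, another linker histone, was at 0.546 to 0.656 CPM in control, 0.943 to 1.09 CPM at 500 mOsm and 3.90 to 5.80 CPM at 600 mOsm. Hist1h2ak, a core histone gene with near-identical copies that can share reads, went from 0.977 ± 0.138 through 1.39 ± 0.163 to 5.20 ± 0.559 CPM. Replication-dependent histone transcripts mostly lack a poly(A) tail, and these libraries were selected with poly-T beads. Igf2, a growth factor, was listed at 0 counts in all control libraries and at 32 to 59 counts at 600 mOsm. Gadd45g, a stress-inducible growth arrest gene, was at 41.1 ± 2.58, 74.8 ± 6.91 and 133 ± 7.39 CPM. In all, 58 genes had r above 0.9, and Hexim2 was in position 82 with r = 0.864.

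Beyond the 9 genes, 40 other elongation genes were listed, of which 36 were tested (not Aff2, Aff3, Ell3 and Eaf2). At 500 mOsm 4 of the 36 were higher and 6 lower than in control, at 600 mOsm 6 were higher and 11 lower, and between 600 and 500 mOsm 3 were higher and 12 lower. Their median log2 fold changes were -0.03, -0.05 and -0.09. The share of higher genes was 11.1%, 16.7% and 8.33% in these comparisons, beside 13.2%, 15.2% and 12.1% of all genes. The share of lower genes was 16.7% at 500 mOsm, near the 14.9% of all genes, and 30.6% and 33.3% in the comparisons with 600 mOsm, above the 19.9% and 17.2% of all genes. With single libraries left out, the count of higher genes ranged from 1 to 4 at 500 mOsm (1 without control replicate 1) and from 2 to 6 at 600 mOsm.

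Partners of super and little elongation complexes held the steepest fall of the list in each comparison. Aff1, a scaffold related to Aff4, was at 119 CPM in control, 99.5 CPM at 500 mOsm and 55.3 CPM at 600 mOsm, a log2 fold change of -1.11 (SE 0.063, edgeR adjusted p = 8.95e-09) at 600 mOsm and of -0.85 (SE 0.063, edgeR adjusted p = 1.55e-07) between 600 and 500 mOsm. Eaf1, which binds Ell proteins, fell by 0.35 on the log2 scale at 500 mOsm (SE 0.054, edgeR adjusted p = 1.64e-04). Its mean level was 240 CPM in control, 188 CPM at 500 mOsm and 142 CPM at 600 mOsm, so it was lower still at 600 mOsm. Ell, the relative of Ell2, was lower at 500 mOsm by -0.38 (SE 0.062, edgeR adjusted p = 2.52e-04) and then higher at 600 than at 500 mOsm by 0.56 (SE 0.061, edgeR adjusted p = 8.00e-06), whereas Ell2 stayed low in both. Mllt1, a chromatin reader of these complexes, was 0.22 higher at 500 mOsm (SE 0.060, edgeR adjusted p = 0.0115).

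Among bromodomain and P-TEFb release factors, 1 of 6 was higher at 500 mOsm (13.2% of all genes), and 3 of 6 were lower at 600 mOsm than in control (19.9% of all genes) and 4 of 6 lower than at 500 mOsm (17.2% of all genes). Brd2, which binds acetylated histones, was 0.42 higher at 500 mOsm (SE 0.043, edgeR adjusted p = 2.75e-06). Its mean level was 688 CPM in control, 920 CPM at 500 mOsm and 667 CPM at 600 mOsm, so it did not exceed control at 600 mOsm.

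The 6 genes of DSIF and NELF, the factors that hold paused polymerase, held 0 higher and 0 lower genes at 500 mOsm by edgeR. The counts were also 0 at an unadjusted p under 0.05, with DESeq2 and with limma. Of all genes, 13.2% were higher and 14.9% lower there, and 0 of 6 genes is near those shares. At 600 mOsm 2 of the 6 genes were higher than in control, beside 15.2% of all genes. Nelfcd, a NELF subunit and 1 of these 2, rose by 0.19 (SE 0.053, edgeR adjusted p = 0.0126). A further 6 genes encode other kinases of the polymerase tail, their cyclins and an assembly factor. Mnat1, the assembly factor of the Cdk7 kinase, was 0.43 higher at 600 mOsm than in control (SE 0.087, edgeR adjusted p = 0.00144). The kinase gene Cdk7 was 0.22 higher at 600 than at 500 mOsm (SE 0.063, edgeR adjusted p = 0.0180). Cdk7 was at 35.2 CPM in control, 29.3 CPM at 500 mOsm and 34.1 CPM at 600 mOsm, so the level at 600 mOsm did not exceed that of control. Of these 6 genes, 1 was higher and 2 were lower in each comparison with control, the lower ones being Cdk7 and Cdk12 at 500 mOsm and Cdk12 and Cdk13 at 600 mOsm. Cdk12 and Cdk13, a pair of tail kinases, are named after their values were seen. Cdk12 was at 67.2, 56.1 and 49.9 CPM and was lower in both stress groups, and Cdk13 was at 66.0, 69.1 and 51.4 CPM and was lower at 600 mOsm. Among 6 PAF1 complex genes, 1 was higher and 2 were lower at 600 mOsm than in control, and among 4 other factors that travel with the polymerase, 1 was lower in each of the 3 comparisons. Between 600 and 500 mOsm, 2 genes of the list with Cdk7 were higher and 2 lower, and 2 PAF1 complex genes were lower (12.1% and 17.2% of all genes). In these short lists 1 of 4 genes is 25%, 1 of 6 is 16.7% and 2 of 6 are 33.3%. Of all genes, 13.2% were higher and 14.9% lower at 500 mOsm, and 15.2% and 19.9% at 600 mOsm. Counts this small are only a description.

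**Figure D5:**
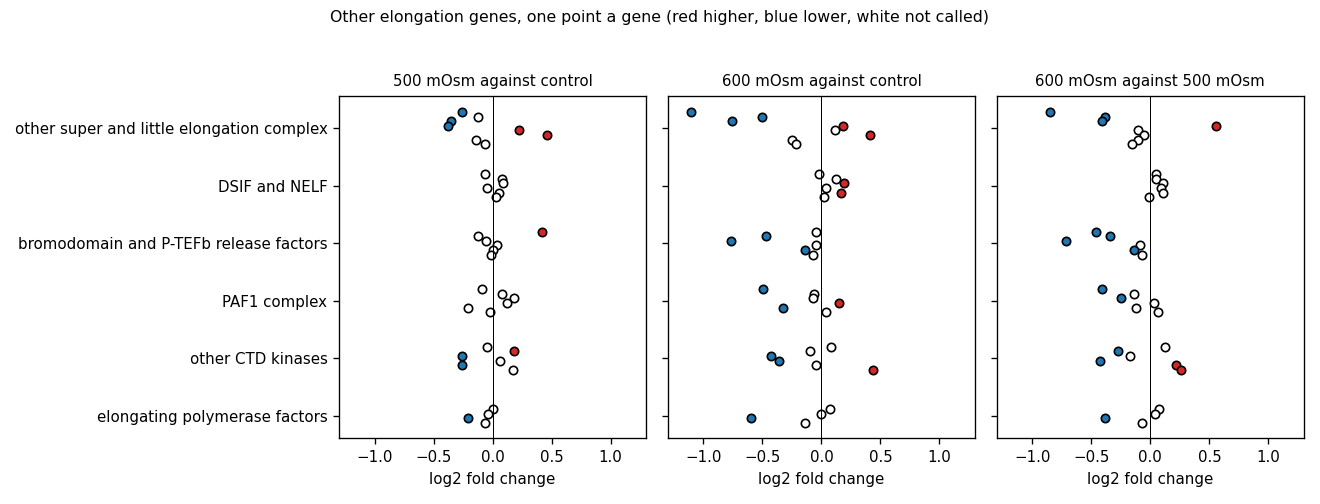
Log2 fold change (x axis) of the 36 tested elongation genes outside the 9, 1 point a gene, in rows by complex (y axis), for the 3 comparisons. Red points were higher, blue points lower and white points not called at an adjusted p under 0.05. The DSIF and NELF row stays between -0.07 and 0.19 in all 3 panels, while the super and little elongation complex row reaches -1.11 at 600 mOsm.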

How the data were processed

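The authors sequenced poly-T selected mRNA of 9 MEF libraries as paired-end reads and deposited counts and FPKM per gene in 1 table. The submitters' processing notes name CASAVA 1.8, STAR and the mm10 build; the counting tool and its use of strand are not given in the sources used here. The deposited FPKM equal counts scaled by library total and gene length (100% of values within 0.1%). The table's 3 group-mean FPKM columns and 18 columns of the authors' own comparisons (fold changes and p-values) were not used.

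The 9 genes and all lists were chosen with earlier results of these data known. Counts were fitted with edgeR 4.0.16 (filterByExpr, TMM, robust quasi-likelihood) over all 9 libraries, with treatment as the only term, and p-values were adjusted by Benjamini-Hochberg over 13082 genes with a threshold of 0.05. Named genes were the 9, the 2 smallest p-values per direction and comparison of each further list, and the 5 genes most correlated with Hexim1. One gene that this rule would name is not reported here. Libraries of a group differed beyond sampling noise (chi-square per degree of freedom 5.25 to 15.9). DESeq2 1.42.0, limma 3.58.1 on log2(FPKM + 1 or 0.1), other scalings and filters, a gene length correction and left-out libraries were alternatives. The fits were tested on simulated data. Positions came from GENCODE vM21, shared sequence from blastn 2.17.0, with R 4.3.3 and Python 3.11.15.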

Additional observations from a re-analysis of the deposited data

How the results depend on the processing

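Of 456 alternative log2 fold changes of the 8 tested genes, 431 kept their direction and their side of the threshold, and 54 of 57 for Hexim1, which was not tested, moved by less than the spread between replicates. The calls of Hexim2 at 500 mOsm, Ccnt1 at 600 mOsm and Cdk9 between 600 and 500 mOsm did not hold in all of them. Signs turned for values near 0 that were not called. Larp7 at 500 mOsm was -0.0083 without a filter. With single libraries left out, Larp7 at 500 mOsm ranged from -0.051 to 0.085, Mepce from -0.048 to 0.14 at 500 mOsm, from -0.093 to 0.049 at 600 mOsm and from -0.17 to 0.013 between them, Ccnt1 between 600 and 500 mOsm from -0.076 to 0.12, and Ell2 between 600 and 500 mOsm from -0.26 to 0.00099. The pseudocount of 1 on FPKM shrinks low genes by construction, and gave Hexim1 values of 0.99, 3.13 and 2.14, with -0.58 for Ccnt2, -0.57 for Ell2 and -0.27 for Hexim2 at 500 mOsm. With the length correction, 2 of the 8 genes were higher at 600 than at 500 mOsm, beside 11.1% of all genes, the second being Ccnt2, and the cause was not tested. Left-out libraries gave 1 to 2 lower genes in that comparison.

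For other elongation genes, the count higher at 500 mOsm was 1 to 4 with libraries left out, and that at 600 mOsm was 2 to 6. The latter was 3 with library size alone, 3 with no filter and 3 with limma at either pseudocount, and the count higher at 600 than at 500 mOsm was 1 with limma at either. For polymerase II and Integrator genes, the count higher at 500 mOsm was 2 with no filter, 2 with at least 10 counts in every library, 2 with DESeq2, 3 with the length correction and 1 to 2 with libraries left out. Their count at 600 mOsm was 4 to 8 with libraries left out, and between 600 and 500 mOsm it was 4 to 7, or 4 with the length correction, with 0 to 1 lower. The causes were not tested.

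Replicate numbers did not consistently pair the libraries. Deviations of same-numbered libraries had a mean correlation of -0.24 over 9 pairs (from -0.69 to 0.61). Those of differently numbered libraries had a mean of 0.12 over 18 pairs (from -0.33 to 0.60). Deviations were taken from the mean of each group, so both means are linked. Some libraries of different groups thus deviated together, in pairs that the numbers do not follow, and the source was not tested. A fit with a replicate block called 2 other elongation genes as higher in either stress group (2 at each intensity), and Hexim2 at 500 mOsm had an adjusted p of 0.0578 by edgeR. Depth limits Hexim2 and Ell2 most, with counts from 42 and 108 in the lowest library.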

Other observations

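The subunits of RNA polymerase II and of Integrator, a complex that cuts nascent RNA and ends early elongation, were listed as 12 and 14 further genes, and all 26 were tested. At 500 mOsm 1 was higher (Ints3) and 2 were lower than in control, shares of 3.85% and 7.69% that lie below the 13.2% and 14.9% of all genes. At 600 mOsm 7 (26.9%) were higher and 0 lower by edgeR, against 15.2% and 19.9% of all genes, with 0 lower also at an unadjusted p under 0.05, with DESeq2 and with limma. Between 600 and 500 mOsm 7 were higher and 0 lower by edgeR and by DESeq2 and limma, with 1 lower at an unadjusted p under 0.05, against 12.1% and 17.2% of all genes. The 7 higher genes became 4 without 600 mOsm replicate 1 in the comparison with control, and 4 without 500 mOsm replicate 3 between 600 and 500 mOsm. The share of all genes called higher also fell in these fits, to 10.4% and 10.1%. Ints3 was 0.30 higher at 500 mOsm (SE 0.052, edgeR adjusted p = 4.87e-04) and 0.35 higher at 600 mOsm (SE 0.052, edgeR adjusted p = 1.18e-04).

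Ints5, a large Integrator subunit, was at 157 CPM in control, 105 CPM at 500 mOsm and 169 CPM at 600 mOsm, a log2 fold change of -0.59 (SE 0.060, edgeR adjusted p = 2.91e-06) at 500 mOsm and of 0.69 (SE 0.060, edgeR adjusted p = 7.49e-07) between 600 and 500 mOsm. Vwa9, the older name of Ints14, was likewise at 64.5, 51.7 and 64.5 CPM, with -0.32 (SE 0.056, edgeR adjusted p = 4.40e-04) and 0.32 (SE 0.056, edgeR adjusted p = 5.36e-04). Of 12 polymerase II subunits, 0 were called at 500 mOsm by edgeR, at an unadjusted p under 0.05, with DESeq2 or with limma, beside 13.2% of all genes higher and 14.9% lower. At 600 mOsm 4 (33.3%) were higher than in control, and 5 (41.7%) were higher at 600 than at 500 mOsm, beside 15.2% and 12.1% of all genes. Polr2e, a subunit shared by all 3 nuclear polymerases, was 0.23 higher at 600 mOsm than in control (SE 0.046, edgeR adjusted p = 0.00115).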
